A study of Homo sapiens with 4 samples.

Results

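The genes of MHC class I antigen presentation were followed in SUM149 cells, an established cell line from an inflammatory breast cancer, during 12 h with Ricolinostat (ACY1215), an inhibitor of the deacetylase HDAC6. They were 9 of the 34755 genes named on the array: HLA-B, HLA-C, HLA-E, HLA-F, B2M, TAP1, TAP2, TAPBP and NLRC5. Members were chosen by gene symbol, with every probe of that symbol taken and no threshold on a measured value, by a rule written with earlier results of these data known. They were represented by 19 of 58201 probe designs in 28 spots of each array.

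The groups were SUM149 cells without treatment and SUM149 cells with 2.5 uM ACY1215 for 3, 6 and 12 h, all from attached cultures. Total RNA of each group was labelled with Cy5 and hybridised to 1 of 4 Agilent two-colour arrays against a Cy3 reference that the labels describe as pooled SUM149 RNA, treated and untreated. With 1 array per time point no test of the treatment could be made, and the small number of arrays sets the precision. The only error that could be measured was technical: repeated spots of 300 probes had an SD of the log2 change from untreated of 0.157 at 3 h, 0.120 at 6 h and 0.116 at 12 h. This SD does not cover differences between cultures. No vehicle-treated culture at 3, 6 or 12 h was analysed here, so treatment and time in culture cannot be told apart. A fall in the number of cells that hold a transcript and a fall in the transcript per cell cannot be told apart either.

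MHC class I molecules display peptides from inside the cell to CD8+ T cells, and their absence can be sensed by natural killer cells. A heavy chain, encoded by HLA genes, pairs with the light chain beta-2 microglobulin, while TAP1 and TAP2 form the transporter that carries peptides from the cytosol into the endoplasmic reticulum and tapasin, encoded by TAPBP, holds the empty molecule beside the transporter. NLRC5 is a transactivator of class I genes, and interferons induce most of the pathway, which tumours often lose in part.

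The promoters of these genes carry short elements read by interferon-regulated factors, NF-kappa B and the complex that recruits NLRC5. RefSeq promoter windows on GRCh38.p14, reaching from 250 bases before to 50 after the transcription start, held 7 of the 9 members in 8 windows, with none used for HLA-E and NLRC5. The stretches below are shown because they hold the interferon response element letters that all 7 genes had in at least 1 window. Capitals mark matches on either strand to TTTCNNTT, to GGGGATTC (the kappa B core of enhancer A) or to TGACGC (the core of the X2 box or site alpha), read 5' to 3' along the gene. They lie at chr6:31357310-31357369 on the minus strand for HLA-B, chr6:31272219-31272278 on the minus strand for HLA-C, chr6:29723243-29723302 on the plus strand for HLA-F, chr15:44711357-44711416 on the plus strand for B2M, chr6:32853800-32853859 on the minus strand for TAP1, chr6:32838760-32838819 on the minus strand for TAP2 and chr6:33314079-33314118 on the minus strand for TAPBP.
HLA-B: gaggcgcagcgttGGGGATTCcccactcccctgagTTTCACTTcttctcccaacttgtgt
HLA-C: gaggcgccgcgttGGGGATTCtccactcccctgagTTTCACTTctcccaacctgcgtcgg
HLA-F: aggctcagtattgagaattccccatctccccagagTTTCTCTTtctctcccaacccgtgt
B2M: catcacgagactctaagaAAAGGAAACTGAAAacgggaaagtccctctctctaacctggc
TAP1: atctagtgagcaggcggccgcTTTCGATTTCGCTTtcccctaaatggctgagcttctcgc
TAP2: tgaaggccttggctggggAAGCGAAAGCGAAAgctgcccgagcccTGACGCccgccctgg
TAPBP: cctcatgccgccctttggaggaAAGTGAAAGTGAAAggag

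Such letters are common in promoters: TTTCNNTT was present in 22.8% of 35116 promoter windows, TGACGC in 9.14% and the Y box core CCAAT in 34.6%, whereas GGGGATTC was present in 0.888%. Only the HLA-B and HLA-C windows, of the 7 genes, held all 4. The stretches of HLA-B and HLA-C were identical at 46 of 60 bases, and that of HLA-F matched HLA-B at 36 of 60 without the GGGGATTC letters. B2M, TAP1, TAP2 and TAPBP each had 2 overlapping TTTCNNTT matches. In TAP1 these stood at -134 and -128 from the start, in a window that shared 13 bases with that of PSMB9, the neighbouring immunoproteasome gene on the opposite strand. The second TAP1 window held none of the 4 motifs. A match of letters is a description of the window and no evidence of a bound factor.

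Markers of the cell type were checked in untreated cells, with the caution that signals of different probes cannot be ranked against each other. All 8 epithelial markers were well above background in Cy5, with a median signal of 6103 and the highest value, 41408, for the keratin KRT18, though the KRT14 spot lay in the damaged area. The 5 leukocyte markers on the array, of 6 listed, were above background but dim, with a median of 151 and a highest value of 770 for CD14, and the 4 fibroblast markers had a median of 150 with 349 for COL1A1, over a background of 24. The ratios to the Cy3 reference departed from its label in both directions, which touches the values below. In untreated cells the log2(Cy5/Cy3) of the fibroblast genes COL1A2 and LUM was -5.00 and -5.65, and that of HLA-C was -3.10, whereas a pool of the 4 Cy5 samples read alike in both dyes would give a ratio near 0. Among the epithelial markers KRT5 was at 4.05 and KRT17 at 3.94, but KRT8 at -1.04 and KRT18 at -0.90. The part of the reference in any level was not tested. Changes from untreated are differences between arrays hybridised to the same reference.

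Of the 19 probes, 18 stood well above background in Cy5 and in Cy3 on each of the 4 arrays, and 17 had a value on every array. An area of the untreated array and another of the 3 h array were damaged, with 3.24% and 4.60% of spots inside them, compared with 0.243% at 6 h and 0% at 12 h. The probes that represent HLA-B and TAP2, chosen by their Cy3 signal over spots not marked as outliers, lay in the damaged area of the untreated array and were marked there. Both genes therefore have no change from untreated on those probes, and 7 of 9 members entered the counts.

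Over these 7 genes the median log2 change from untreated was 0.19 at 3 h, 0.31 at 6 h and 0.55 at 12 h, beside 0.0076, 0.016 and 0.014 over all genes measured. At 3 h 1 gene, TAP1, was higher by 1.5-fold, beside 6.87% of all genes, and none was lower, beside 1.96%. At 6 h TAP1 was again the 1 gene higher, beside 9.4% of all genes, and none was lower, beside 4.42%. At 12 h TAP1, HLA-C and B2M were higher, 3 of 7 genes beside 8.09% of all genes, and none was lower, beside 5.13%. No member reached 2-fold, a size passed in either direction by 2.06%, 3.75% and 3.45% of all genes at 3, 6 and 12 h. Under median centring and with Cy5 alone TAP1 was the 1 gene still higher at 12 h, with a median of 0.13 and 0.26. The calls of HLA-C and B2M thus depended on how the signals were normalised.

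**Figure D1:**
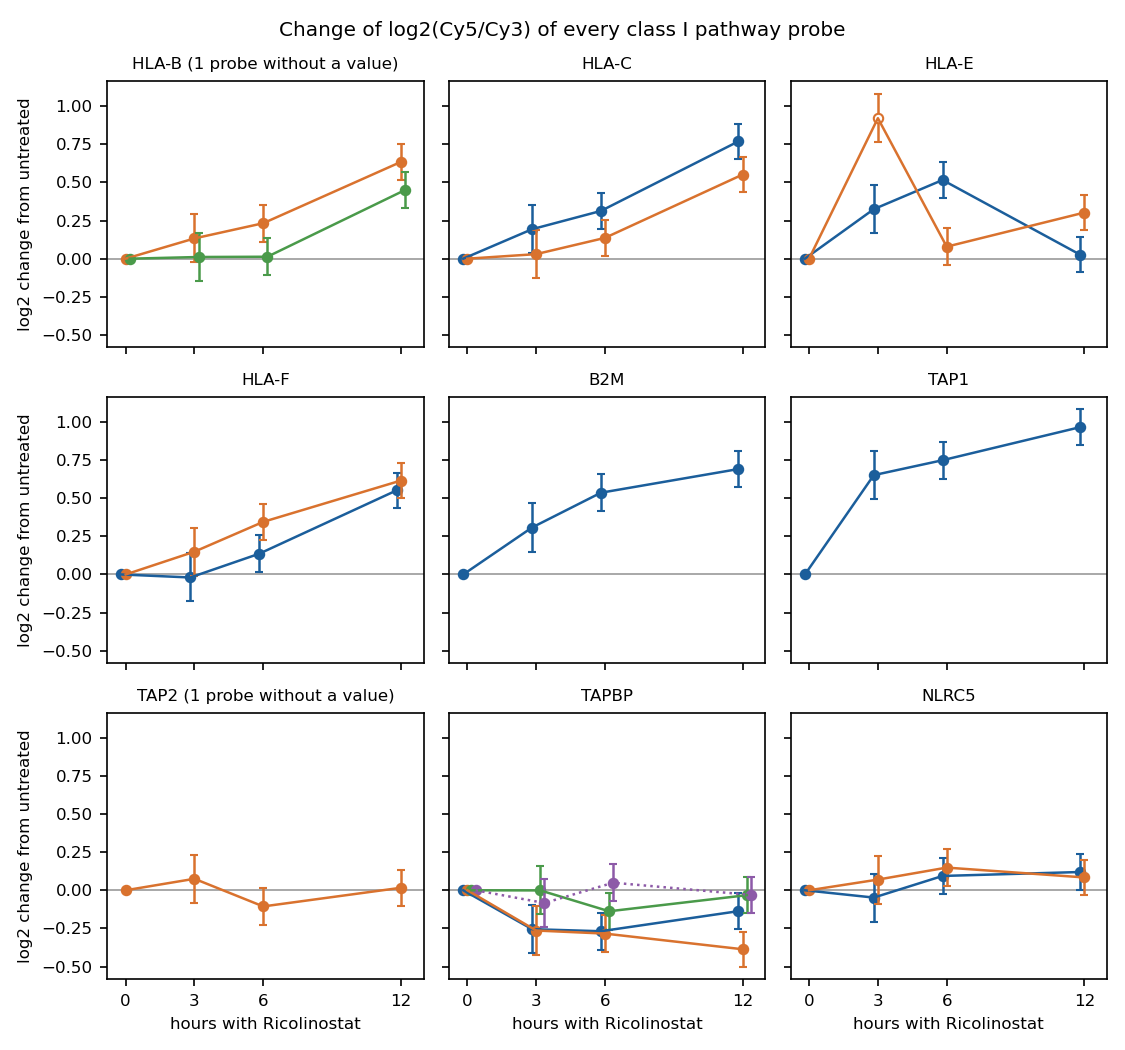
Change of log2(Cy5/Cy3) from untreated (y axis) against hours with Ricolinostat (x axis) for every probe of the 9 genes, 1 line per probe, with bars of 1 technical SD between repeated spots (0.157, 0.120 and 0.116 at 3, 6 and 12 h), points shifted slightly sideways, an open circle for a spot in a damaged area and a dotted line for a probe not well above background. Each HLA-B, HLA-C and HLA-F line is at its highest at 12 h, the TAP1 line reaches 0.97 and the B2M line 0.69, and TAPBP stays at or below 0 on its 3 measured probes.

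The classical heavy chains HLA-B and HLA-C, which present peptides to CD8+ T cells, were higher at 12 h on each probe with a value. The brightest HLA-C probe (A_33_P3424803) had log2 ratios of -3.10 untreated, -2.91 at 3 h, -2.79 at 6 h and -2.34 at 12 h, with raw Cy5 signals of 6924, 7227, 6066 and 7362. Its log2 change was 0.19, 0.31 and 0.77, the last being 1.70-fold and above the technical SD of 0.116. The second HLA-C probe (A_33_P3330109) had changes of 0.03, 0.14 and 0.55, so that both put most of the difference in the last 6 h. The raw signals of this probe were 6421 untreated and 6226 at 12 h in Cy5 and 20622 and 19556 in Cy3. Its raw ratio was thus nearly the same on both arrays, and most of its change at 12 h came with normalisation.

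HLA-B was read by 3 probes with the same late step. Probe A_33_P3379947, without an untreated value, had log2 ratios of -3.32 at 3 h, -3.12 at 6 h and -2.68 at 12 h. Probe A_33_P3424800 had -2.78 untreated and -2.65, -2.55 and -2.15 later, a change of 0.13, 0.23 and 0.63, with raw Cy5 signals of 4608, 3296, 4338 and 4858 and a Cy3 signal that also was lowest at 3 h (12257). Probe A_33_P3399208, annotated to another HLA-B transcript, had a change of 0.01, 0.01 and 0.45, with raw Cy5 signals between 141 and 179. HLA transcripts are close to identical over much of their length, and probe sequences were not used here, so signal shared between HLA genes cannot be separated.

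Among the non-classical heavy chains, HLA-F, which can be found on activated cells, also was highest at 12 h. Its brightest probe (A_33_P3379939) had log2 ratios of -1.50, -1.52, -1.36 and -0.95, a change of -0.02, 0.14 and 0.55. The second HLA-F probe (A_33_P3379967), annotated to another transcript, had ratios of 0.97, 1.12, 1.31 and 1.58, a change of 0.15, 0.34 and 0.62, of which the larger share was present by 6 h. Both were beyond the technical SD at 12 h, although their ratios to the reference differed in sign.

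HLA-E, which presents leader peptides of other heavy chains to the NKG2 receptors of natural killer cells, was not read alike by its 2 probes. The brightest (A_33_P7431456) had log2 ratios of -1.35, -1.02, -0.83 and -1.32, a change of 0.32 at 3 h, 0.52 at 6 h and 0.03 at 12 h. Its raw Cy5 signal was 81662, 94744, 79744 and 57953, with no saturated spot on any array. The dimmer probe (A_32_P460973) changed by 0.92 at 3 h, where its spot lay in the damaged area, by 0.08 at 6 h and by 0.30 at 12 h. No direction common to both probes could be given at 12 h, because the brighter one was within the technical SD.

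The step from 6 to 12 h differed between the genes. HLA-B, HLA-C and HLA-F were higher at 12 h than at 6 h by 0.44, 0.46 and 0.42 on the log2 scale, each more than 1.25-fold, a size chosen after the values were seen. That was 3 of 9 genes, beside 3.85% of all genes, and this step does not use the damaged untreated array. Signal shared between HLA genes cannot be separated, so the 3 cannot be taken as independent and the count is a description only. All 7 probes of these 3 genes were higher, by 0.27 to 0.46, with a technical SD of 0.078 for this step. Under median centring the steps of HLA-B, HLA-C and HLA-F were 0.26, 0.26 and 0.24, all under 1.25-fold, so the count of 3 was lost there. A late difference was not particular to these members. HLA-G, a heavy chain outside the members, changed from untreated by -0.0005 at 3 h, 0.09 at 6 h and 0.41 at 12 h. Its 12 h change was -0.06 under median centring, and it was named after its value was seen. From 6 to 12 h B2M was higher by 0.16, TAP1 by 0.22, TAPBP by 0.13 and NLRC5 by 0.03 on their representing probes. Under median centring these steps were -0.04, 0.05, -0.03 and -0.04. The remaining measured TAPBP probes were at -0.10 and 0.11, and the second NLRC5 probe at -0.06. TAP2 was lower by a log2 difference of -0.24 and HLA-E by one of -0.49 on its brighter probe, with its dimmer probe higher by 0.22.

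B2M, the invariant light chain that every class I heavy chain needs, was the member with the most measurements, since its probe (A_23_P37441) was spotted 10 times per array. The log2 ratio over spots was -1.74 ± 0.053 (SD, 8 spots) untreated, -1.44 ± 0.044 (10 spots) at 3 h, -1.21 ± 0.043 (10 spots) at 6 h and -1.05 ± 0.017 (10 spots) at 12 h. Under the main normalisation the ranges did not overlap between any pair of arrays. Spots lay from -1.81 to -1.65, from -1.50 to -1.36, from -1.28 to -1.15 and from -1.07 to -1.01. How often the spots of other repeated probes separated in this way was not counted, so it cannot be called particular to B2M. Over the 8 spots measured on both arrays the log2 change was 0.29 ± 0.049 at 3 h, 0.53 ± 0.090 at 6 h and 0.69 ± 0.038 at 12 h, a 1.61-fold difference in the last. The spots share 1 RNA sample per array and are technical repeats, not replicates of the condition. The raw Cy5 signal was 7396 untreated, 10441 at 3 h, 9062 at 6 h and 8866 at 12 h, highest at 3 h. The order of the arrays after 3 h depended on the normalisation, since under median centring the B2M change was 0.38, 0.28 and 0.24, highest at 3 h as well.

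**Figure D2:**
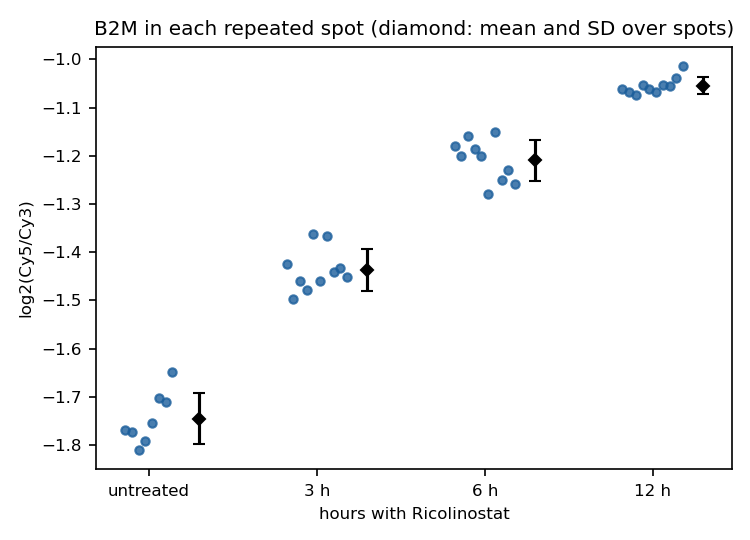
Log2(Cy5/Cy3) of the repeated B2M spots (y axis) on the arrays of untreated cells and of cells with Ricolinostat for 3, 6 and 12 h (x axis, not to scale in time), with points for spots (8 untreated, 10 on the other arrays) and a diamond for their mean with 1 SD over spots. Under the main normalisation the 4 clusters of spots do not overlap, with means of -1.74, -1.44, -1.21 and -1.05.

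TAP1, the first subunit of the peptide transporter, had the highest change of the 7 measured genes at each time point. Its probe (A_23_P59005) had log2 ratios of 0.38 untreated, 1.03 at 3 h, 1.13 at 6 h and 1.35 at 12 h. The change was 0.65, 0.75 and 0.97, the last 1.95-fold, each several times the technical SD. Raw Cy5 signals were 3525.5, 5351, 4632.5 and 4563, all treated arrays above the untreated one, while Cy3 moved only between 1593.5 and 1817.5. Most of the TAP1 difference was thus present by 3 h, whereas 5 of the 6 measured probes of HLA-B, HLA-C and HLA-F had most of theirs after 6 h, the exception being the second HLA-F probe.

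The 5 genes whose 3 changes were nearest to those of TAP1, by root mean square difference over 19890 genes with a value at all time points, were ALDH6A1 (0.014), IFT80 (0.038), PPP4R4 (0.039), LOC101928794 (0.045) and LTA4H (0.052). Of the other members B2M came nearest, at rank 977, followed by HLA-C at 1833. The likeness rests on 3 differences from the same untreated array.

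TAP2, the partner of TAP1 in the transporter, was measured on its brighter probe (A_33_P3214650) only from 3 h on. The log2 ratio was 0.90 at 3 h, 0.80 at 6 h and 0.56 at 12 h, and the raw Cy5 signal 2095, 1632.5 and 1196.5, in falling order. The other probe (A_23_P368067) had Cy5 signals of 36, 39, 33 and 34 over a background of 23 to 25, too near it for its changes of 0.08, -0.11 and 0.02 to carry much. The ratio of TAP1 was higher at 12 h than at 3 h and that of TAP2 lower, but the first depended on the normalisation: under median centring the TAP1 change was 0.77 at 3 h and 0.61 at 12 h, and its raw Cy5 signal also was lower at 12 h than at 3 h. TAP2 could not be set against untreated cells.

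TAPBP, the bridge between the transporter and the empty heavy chain, was below untreated at 12 h on its representing probe, the one such gene of the 7 measured. HLA-E, at 0.03, was below 0 under each of the 6 other ways of normalising. Probe A_23_P365719 had log2 ratios of -0.04, -0.29, -0.31 and -0.18, a change of -0.25, -0.27 and -0.14, with Cy5 signals of 4517, 3975.5, 2731.5 and 2708.5. Probe A_33_P3325914 changed by -0.26, -0.28 and -0.39. The third (A_23_P259580) changed by less than 0.01 at 3 h, then by -0.14 and -0.03, and the remaining one (A_23_P360291) was not well above background on any array. None of the 3 measured probes was higher at 6 or 12 h, and none reached 1.5-fold lower.

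NLRC5 was dim. Its brighter probe (A_32_P416583) had Cy5 signals of 139, 162, 153.5 and 157.5, with log2 ratios of 0.10, 0.06, 0.20 and 0.22 and a change of -0.05, 0.09 and 0.12. The second (A_23_P26583) changed by 0.07, 0.15 and 0.08, at a Cy5 signal of 30 over a background of 22 to 23. Neither probe changed by more than the technical SD at both 6 and 12 h. With other signals the sizes differed: the brighter probe changed by 0.16 and 0.26 with Cy5 alone, and with Feature Extraction's own signals the probes changed by 0.26 and 0.25 and by 0.72 and 0.43, all beyond that SD, whereas under median centring the brighter one was at -0.01 and -0.04.

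The size of these changes depended on how the signals were normalised. When each array was only centred on its median ratio, the median of all genes at 12 h was -0.16 and that of the brightest 10% of genes, which holds 6 of the 9 members, was -0.39. Under that setting the 12 h change was 0.61 for TAP1, 0.30 for HLA-C, 0.24 for B2M and 0.13 for HLA-F, all above these medians, with TAPBP at -0.53 and HLA-E at -0.56. With the Cy5 channel alone, where the reference plays no part, it was 0.69 for TAP1, 0.49 for B2M, 0.44 for HLA-C and 0.20 for HLA-F, with TAPBP at -0.43 and HLA-E at -0.07. The 6 measured probes of HLA-B, HLA-C and HLA-F were above 0 at 12 h under all 7 ways of normalising, but under median centring 4 of the 6 were below 0 at 6 h.

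**Figure D3:**
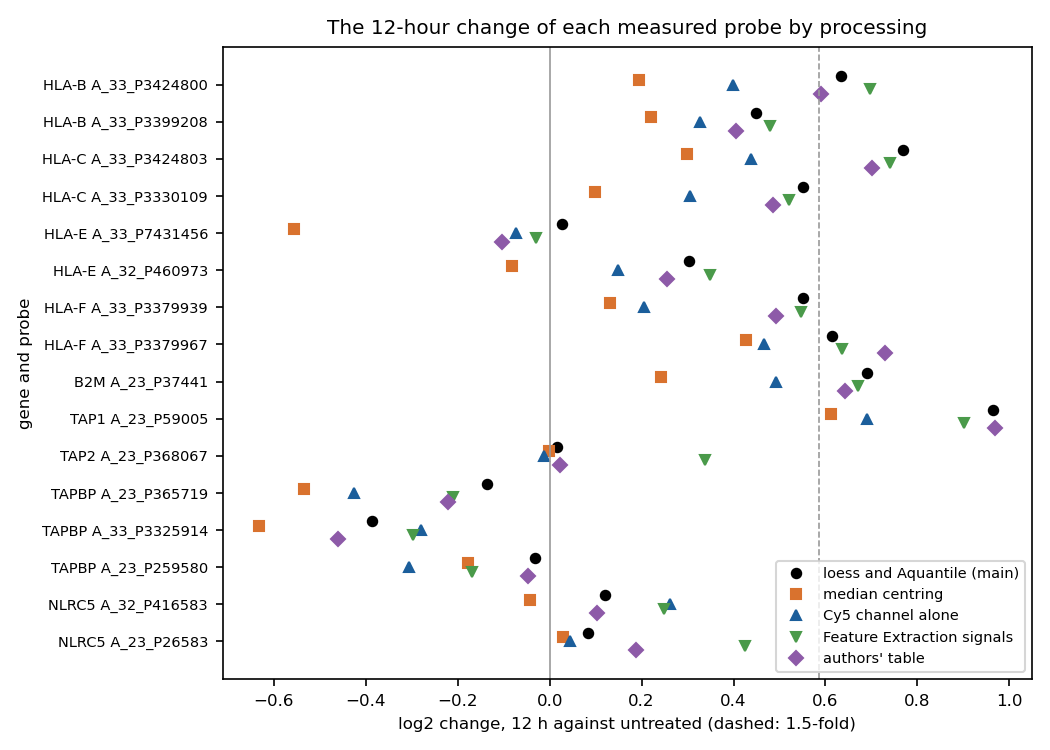
Log2 change at 12 h against untreated (x axis) of the 16 probes well above background and with a value on both arrays (y axis), with 1 symbol per way of normalising and a dashed line at 1.5-fold. TAP1, B2M, HLA-B, HLA-C and HLA-F probes lie to the right of 0 under each symbol, TAPBP probes to the left, and the brighter HLA-E probe on either side.

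The remaining steps of the pathway were read from lists chosen by function. Peptides for class I are cut by proteasomes and trimmed by aminopeptidases. Of 14 such genes measured at 12 h, 1 was higher by 1.5-fold and 2 lower, with a median change of 0.06. PSMB9, a catalytic subunit of the immunoproteasome and the neighbour of TAP1, had log2 ratios of -0.35, 0.09, 0.27 and 0.46 and a 12 h change of 0.81, which was under 1.5-fold with median centring (0.48) and with Cy5 alone (0.58). PSMB8 and PSMB10, the other inducible subunits, did not share it, with changes of -0.46 and -0.60, PSMB8 being named after its value was seen. PSMB10 was at -0.56 with Cy5 alone, short of 1.5-fold, and at -1.05 with median centring. The trimming enzyme ERAP1 changed by -0.60.

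Of 8 loading and quality control genes 2 were higher, with a median of 0.28: the chaperone HSPA5 (BiP) by 1.51 and CALR, the calreticulin of the loading complex, by 0.73 on the log2 scale. CALR was under 1.5-fold with median centring (0.20) and with Cy5 alone (0.55). The lowest was the tapasin-like TAPBPL at -0.28. Of 20 regulators of class I genes and of interferon signalling 1 was higher, STAT2, a transducer of type I interferon signals, at 1.19. NFYC, a subunit of the CCAAT-binding factor, was lower at -0.92. The median of the regulators was 0.22.

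Of 11 interferon-stimulated genes measured at 12 h 3 were higher, GBP2 (1.16), IFI6 (1.02) and IFIT1 (0.83), and none lower, with a median of 0.27 and the lowest value, -0.31, for IFIT3. IFIT1 was under 1.5-fold with Cy5 alone (0.56). GBP2 and IFIT1 were dim in untreated cells, with Cy5 signals of 40.5 and 78 over a background of 23. Of 9 class I-like molecules and ligands of natural killer or T cell receptors 4 were higher and none lower, with a median of 0.41. These were ULBP2 (1.51), MICA (1.31) and ULBP1 (1.01), ligands of the activating receptor NKG2D, and CD274 (0.62), which encodes PD-L1, while HFE was lowest at -0.26. Not all NKG2D ligands of the list shared the rise. MICB was at 0.18 on its representing probe (-0.18 with median centring, 0.01 with Cy5 alone) and at 1.12 on its other probe. ULBP3 was not well above background in both channels on any array. Both were named after their values were seen. CD274 was under 1.5-fold with median centring (0.55) and with Cy5 alone (0.57). ULBP1 and CD274 also were dim in untreated cells, with Cy5 signals of 68.5 and 56 over a background of 24. Of 8 class II pathway genes none passed 1.5-fold, with values from -0.40 for the class II transactivator CIITA to 0.31 for HLA-DMB and a median of 0.09. These counts stand beside the 8.09% of all genes that were higher and 5.13% that were lower at 12 h.

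**Figure D4:**
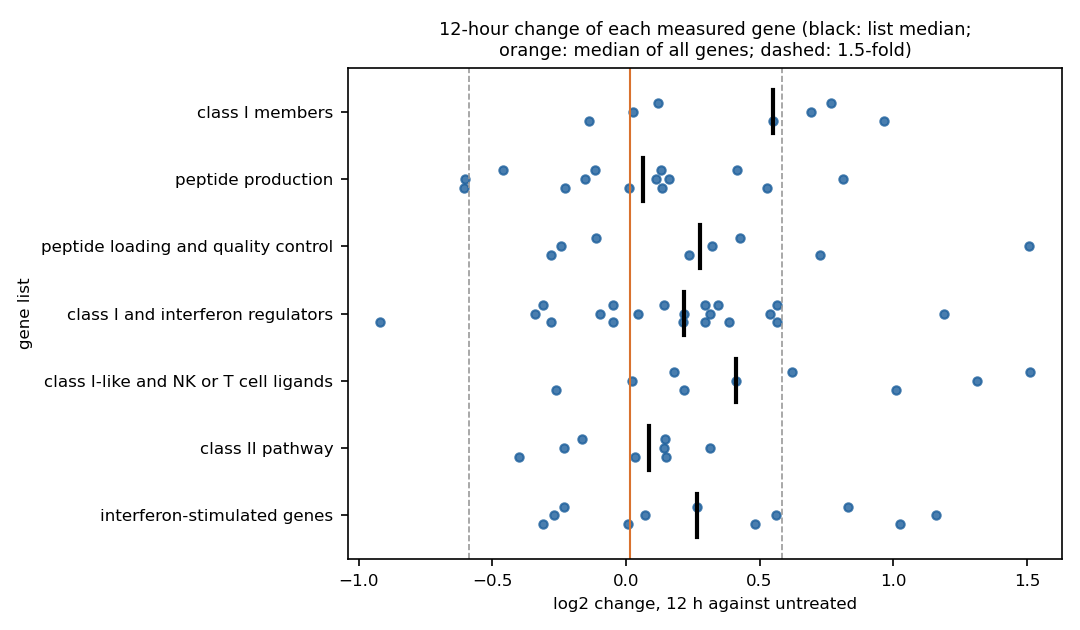
Log2 change at 12 h against untreated (x axis) of each measured gene, 1 point per gene on its representing probe, in the class I members and 6 lists of related genes (y axis), with the list median in black, the median of all genes (0.014) in orange and dashed lines at 1.5-fold. The members' median is 0.55, that of peptide production 0.06, and the rightmost points are ULBP2 and HSPA5 at 1.51.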

How the data were processed

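RNA of 4 SUM149 cultures (untreated, and 3, 6 and 12 h with 2.5 uM ACY1215) was measured on 4 two-colour Agilent arrays of 1 slide, scanned at 1 time, with 62976 spots each. The deposited scanner files hold median spot and background intensity per channel (Feature Extraction 12.0.1.1) with median Cy5 signals of 36 to 40 over a background of 24. The authors' table of log2 ratios came without a normalisation given in the sources used here. It correlated at 0.994 to 0.995 with ratios made with an offset of 1, and served as an alternative.

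Ratios were made in limma 3.58.1 (R 4.3.3): normexp with an offset of 50, control spots left out, outlier-flagged spots set aside, loess within and Aquantile between arrays. Python 3.11.15 averaged spots of a probe. In counts and medians a gene was represented by its probe with the brightest Cy3 signal on average, and counted when that probe was well above background in Cy5 and Cy3 on the arrays compared. A damaged area was a window (13 rows by 7 columns) in which 10% or more of spots were flagged or over 2-fold from the median Cy3. The procedure was tested on simulated data, which returned the planted direction at every size, with the offset shrinking changes of dim probes. All simulated arrays were rebuilt from the untreated array, with planted changes of 2-fold or more. Smaller changes, such as those of the members, and differences in dye balance between arrays were not simulated.

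Named were all members with every probe, in each list the highest and lowest gene and those past 1.5-fold at 12 h, and the 5 genes nearest to TAP1. Members and lists were chosen with earlier results of these data known. Alternatives varied background, normalisation, channel, filter, probe choice, damaged areas and threshold.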

Additional observations from a re-analysis of the deposited data

How the results depend on the processing

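No paired analysis was possible because there was a single array for each group. Without replicates, an alternative was compared with the main value by the technical SD. The median change of the 7 measured members at 6 h was 0.16 with Cy5 alone and 0.036 with median centring, and at 12 h it was 0.26 and 0.13. The number of members higher by 1.5-fold at 12 h was 1 with Cy5 alone, 1 with median centring and 0 at 2-fold. At 6 h it was 0 with median centring and 0 at 2-fold. At 3 h it was 0 with Cy5 alone, 2 with the mean over all probes of a gene and 0 at 2-fold. The gene added by that mean was HLA-E, at 0.62. Its dimmer probe was at 0.92 there, on a spot in the damaged area of the 3 h array. The cause of the other differences was not tested. The other 84 values of medians and counts moved by less than the technical SD of single probes, a wide margin for a median of so few genes, or by less than 1.5 times. The median at 3 h was 0.058 with Cy5 alone, beside 0.19. With the mean over all probes it was 0.075, over all members, since HLA-B and TAP2 then had values from their other probes. That median was the change of the dim TAP2 probe. Of 210 single-gene values 191 kept their sign, 35 moved by more than the technical SD (13 of the 21 under median centring among them), and no change past 1.5-fold turned its sign. The 191 include values that could not change. Dropping the filter on dim probes, leaving out damaged areas or taking the brightest probe with a value everywhere gave these 7 genes identical values. B2M and TAP1 have 1 probe each, so the mean over all probes could not move them. Without the filter or the damaged areas, the medians and counts among the 84 were identical too. Taking the brightest probe with a value on all 4 arrays, which brings in HLA-B and TAP2, was chosen after seeing the data. Spot means in place of medians were not run, since the files used here hold medians. The dim probes of TAP2, TAPBP and NLRC5 lie too near background to show small changes.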
